A study of Mus musculus with 8 samples.

Results

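The genes for the de novo DNA methyltransferases, Dnmt3a and Dnmt3b, and for the 3 TET dioxygenases, Tet1, Tet2 and Tet3, were followed in mouse LSK cells. All 5 genes were chosen by name, and each matched 1 of the 45706 gene IDs of the count tables. LSK cells are sorted from bone marrow as lineage-negative, Sca1-positive and Kit-positive, and hold the blood stem cells and multipotent progenitors. The mutant mice carried a conditional knockout of Hira, which encodes a chaperone of histone H3.3, and the control mice were wild type (WT), all of strain C57BL/6. The labels name no Cre driver, no age and no induction, and leave the number of animals behind the libraries unsaid. RNA sequencing had 2 libraries labelled Hira KO and 2 labelled WT, and ATAC-seq, in which a transposase cuts open chromatin, had the same numbers. With 2 libraries a group, p-values measure only how these libraries vary, which may be technical. In sorted bulk cells, a smaller share of cells of a type and less RNA per cell cannot be told apart.

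DNMT3A and DNMT3B place methyl groups on cytosines that were not methylated before, mostly at CpG, while DNMT1 copies the marks after replication. TET enzymes use iron and 2-oxoglutarate to oxidise 5-methylcytosine to 5-hydroxymethylcytosine and further products, which are lost by dilution or cut out by the glycosylase TDG. In human blood, DNMT3A and TET2 are among the genes most often mutated in clonal haematopoiesis, and in mice loss of either one expands the stem cell pool.

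In GRCm38, Dnmt3a (ENSMUSG00000020661) lies on chromosome 12 from 3801559 to 3914443 on the plus strand, and Dnmt3b (ENSMUSG00000027478) on chromosome 2 from 153649411 to 153687730 on the plus strand. All 3 TET genes lie on the minus strand. Tet1 (ENSMUSG00000047146) spans 62804570 to 62887469 of chromosome 10, Tet2 (ENSMUSG00000040943) spans 133463677 to 133545136 of chromosome 3, and Tet3 (ENSMUSG00000034832) spans 83362373 to 83457208 of chromosome 6.

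The labels themselves need care. Hira had 24.4 and 23.3 CPM (counts divided by scaled library size) in the libraries labelled Hira KO, against 16.5 and 17.2 CPM in those labelled WT. It was thus not lower in the library pair labelled as its knockout (log2 fold change 0.50, 95% interval 0.05 to 0.95, edgeR adjusted p = 0.180), and all 8 deposited files bear the other genotype in their names. A gene total can keep reads from exons outside a deletion, but whether this one did was not tested. Libraries are therefore called labelled Hira KO and labelled WT, and every direction rests on the titles. Totals were 17.5 and 19.4 M expected counts in labelled Hira KO and 16.6 and 19.8 M in labelled WT, of which mitochondrial genes took 42.9% and 53.1% in labelled Hira KO and 40.8% and 51.7% in labelled WT. Ddx3y, on the Y chromosome, had 906 counts in labelled WT replicate 2 and at most 2 elsewhere, while Xist had 1470 counts there and 169234 or more elsewhere. Labelled Hira KO replicate 2 had 6 counts of AY036118, against 86174 to 108841 elsewhere.

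The upstream sequences of 4 start sites carry the contrasts described later, between a start that lay in the most enriched open region of the 5 genes, one that lay in none, and the far and internal starts of Dnmt3a. Each is the 250 bases before a RefSeq start site (GRCm38.p6), 5′ to 3′ on the gene's strand, with CpG in capitals. They lie at chr3:133544391-133544640 (minus strand), chr10:62887325-62887574 (minus strand), chr12:3806730-3806979 (plus strand) and chr12:3891494-3891743 (plus strand), in the order printed.
Tet2: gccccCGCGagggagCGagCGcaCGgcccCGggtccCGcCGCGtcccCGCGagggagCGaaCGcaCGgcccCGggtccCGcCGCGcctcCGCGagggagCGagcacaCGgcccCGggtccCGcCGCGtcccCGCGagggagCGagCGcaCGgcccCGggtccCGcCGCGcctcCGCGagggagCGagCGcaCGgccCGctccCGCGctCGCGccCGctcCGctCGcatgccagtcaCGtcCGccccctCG
Tet1: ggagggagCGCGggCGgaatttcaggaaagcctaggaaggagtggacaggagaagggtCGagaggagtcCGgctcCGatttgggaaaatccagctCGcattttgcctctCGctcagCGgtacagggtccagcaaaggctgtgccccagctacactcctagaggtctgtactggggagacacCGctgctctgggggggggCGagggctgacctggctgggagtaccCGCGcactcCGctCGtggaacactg
Dnmt3a first start: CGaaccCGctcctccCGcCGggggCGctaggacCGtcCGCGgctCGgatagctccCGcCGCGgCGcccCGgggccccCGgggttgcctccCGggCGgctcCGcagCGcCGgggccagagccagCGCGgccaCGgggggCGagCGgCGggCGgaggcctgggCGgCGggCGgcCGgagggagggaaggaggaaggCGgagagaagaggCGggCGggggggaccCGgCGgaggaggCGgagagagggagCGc
Dnmt3a internal start: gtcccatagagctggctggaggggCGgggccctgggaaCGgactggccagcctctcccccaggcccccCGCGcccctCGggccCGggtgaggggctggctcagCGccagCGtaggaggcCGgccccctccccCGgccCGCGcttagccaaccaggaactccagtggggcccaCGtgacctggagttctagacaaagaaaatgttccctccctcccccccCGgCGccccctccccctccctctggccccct

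All 5 genes matched the RefSeq promoter table, with 7 start sites, of which 3 belong to Dnmt3a. The Tet2 window held 51 CpG, more than 99.9% of the 32851 windows of the table, whose median was 6. It is built on a tandem repeat, since the word CCGCGAGGGAGC occurs 5 times in it, each copy 42 bases after the last. The windows of the upstream Dnmt3a starts held 38 and 40 CpG, and those of Dnmt3b and Tet3 held 21 and 17. Tet1 and the internal Dnmt3a start, which gives the shorter protein DNMT3A2, had 15 each.

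A short set of motifs was searched on both strands of these windows, with overlapping matches counted. The GC box GGGCGG was in all 7 windows, against 32.7% of all windows, with 5 matches at the first Dnmt3a start and 1 each at Tet1, Tet2 and Tet3. The E-box CACGTG was in the internal Dnmt3a window (6.02% of all windows) and CCAAT in the Tet3 window (33.8%), and neither was in the others. The RUNX word TGTGGT (14.0% of all windows), the GATA word GATAAG (6.55%), the ETS word CCGGAAGT (2.88%) and the NRF1 palindrome (0.782%) were in none of the 7.

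By length-scaled level (TPM, the deposited transcript abundance), Tet2 was the highest of the 5 genes in every RNA library. It stood at 66.6 and 70.6 TPM in labelled Hira KO, against 49.0 and 37.1 TPM in labelled WT, above 93.7% of detected genes or more in each library. Tet3 had 30.25 and 15.8 TPM in labelled Hira KO and 27.8 and 17.9 TPM in labelled WT. Dnmt3a had 22.8 and 20.9 TPM in labelled Hira KO and 26.97 and 18.9 TPM in labelled WT. For both genes the groups overlapped. Tet1 had 28.7 and 24.3 TPM in labelled Hira KO, against 15.2 and 13.6 TPM in labelled WT, so that its lowest labelled Hira KO value lay above its highest labelled WT value. Dnmt3b had 21.0 and 13.6 TPM in labelled Hira KO and 15.2 and 13.4 TPM in labelled WT, the lowest level of the 5 genes in 3 libraries and level with Tet1 in labelled WT replicate 1.

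In labelled Hira KO the mean levels ran from Tet2 (68.6 ± 2.79 TPM) through Tet1 (26.5 ± 3.07), Tet3 (23.0 ± 10.2) and Dnmt3a (21.9 ± 1.37) to Dnmt3b (17.3 ± 5.197; SD, n = 2 each). In labelled WT they ran from Tet2 (43.0 ± 8.41 TPM) through Dnmt3a (23.0 ± 5.68), Tet3 (22.8 ± 7.02) and Tet1 (14.4 ± 1.09) to Dnmt3b (14.3 ± 1.22). In labelled Hira KO only Tet2 stood clear of its neighbour, and the SD ranges of the next genes met. In labelled WT, Tet2 stood clear of Dnmt3a, the SD ranges of Tet3 and Tet1 just failed to meet, and those of Dnmt3a and Tet3, and of Tet1 and Dnmt3b, overlapped. Tet1 made up 22.8% and 22.0% of the summed TET level in labelled Hira KO, against 16.5% and 19.9% in labelled WT. The Tet3 share was 24.1% and 14.3% in labelled Hira KO and 30.2% and 26.1% in labelled WT, and the Tet2 share was 53.1% to 63.8% over the 4 libraries.

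**Figure D1:**
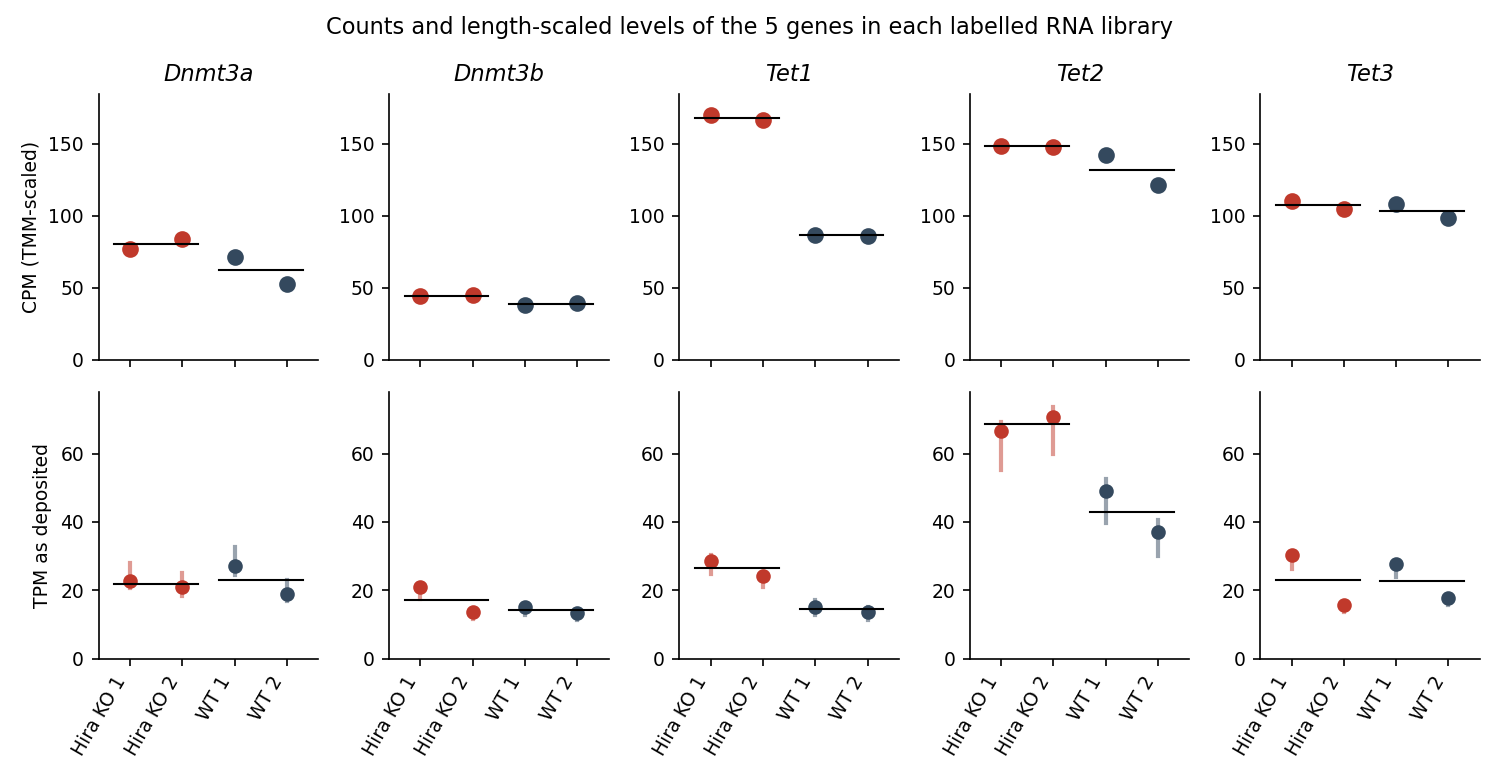
CPM (upper row) and deposited TPM (lower row) of the 5 genes in each library labelled Hira KO (red) and WT (blue), with black lines at group means and vertical bars for RSEM's credibility interval of its posterior mean TPM, which can leave out the plotted TPM. Tet1 was at 169.8 and 167 CPM in labelled Hira KO and at 87.0 and 86.2 CPM in labelled WT, while the Tet3 groups overlap in both rows.

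The comparison of genotypes found 1 of the 5 genes changed, Tet1, which rose in labelled Hira KO. In the fit over all genes, 1.8% of the 16258 tested genes were called in either direction (edgeR adjusted p below 0.05), 1.32% were called higher and 0.48% lower. Tet1 had 3277 and 2774 expected counts in labelled Hira KO, against 1643 and 1575 in labelled WT. Scaled to library size this was 169.8 and 167 CPM in labelled Hira KO, against 87.0 and 86.2 CPM in labelled WT. The groups lay far apart and each pair lay close together. The log2 fold change was 0.96 (SE 0.14, 95% interval 0.64 to 1.28, edgeR adjusted p = 0.0336), which is 1.94-fold. Tet1 was 80th of the 16258 genes by p-value.

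The Tet1 call needs both labelled WT libraries. Without labelled WT replicate 1 its log2 fold change was 0.95 (edgeR adjusted p = 0.399), and without replicate 2 it was 0.94 (0.350), in fits that called 4 and 2 genes in all. On log2(TPM + 1) limma gave 0.83 (adjusted p = 0.645). DESeq2 gave 0.96 and each fit without a labelled Hira KO library gave 0.93 or 0.97, all past the threshold.

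The other 4 genes did not pass. Dnmt3a had 76.8 and 83.8 CPM in labelled Hira KO, against 71.6 and 53.0 CPM in labelled WT. The groups did not overlap, but the gap between them was smaller than the gap between the labelled WT libraries. Its log2 fold change was 0.37 (95% interval -0.07 to 0.80, edgeR adjusted p = 0.282). Dnmt3b had 44.2 and 44.9 CPM in labelled Hira KO and 38.1 and 39.7 CPM in labelled WT, which do not overlap (log2 fold change 0.20, interval -0.18 to 0.57, edgeR adjusted p = 0.503). Tet2 had 149 and 148 CPM in labelled Hira KO and 142 and 121 CPM in labelled WT, also without overlap. Its log2 fold change was 0.17 (interval -0.17 to 0.52, edgeR adjusted p = 0.5315). Tet1, Dnmt3a, Dnmt3b and Tet2 thus all lay higher in labelled Hira KO without overlap, as did 28.3% of all tested genes. Groups that do not overlap in either direction are common here, at 56.1% of all tested genes. Tet3 had 110.15 and 105 CPM in labelled Hira KO and 109 and 98.2 CPM in labelled WT, with overlapping groups (log2 fold change 0.06, interval -0.28 to 0.39, edgeR adjusted p = 0.855). These intervals still allow a 1.74-fold rise of Dnmt3a and a 1.31-fold rise of Tet3.

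Tet1, singled out as the gene called, was set beside the other 4 by the log2 ratio of CPM within each library. The log2 ratio of Tet1 to Tet3 was 0.62 and 0.67 in labelled Hira KO, against -0.32 and -0.19 in labelled WT, a difference of 0.90. The log2 ratio of Tet1 to Tet2 was 0.19 and 0.17 in labelled Hira KO, against -0.71 and -0.49 in labelled WT, a difference of 0.78. Against Dnmt3b the difference was 0.76 and against Dnmt3a 0.58. In each of these 4 ratios both labelled Hira KO values lay above both labelled WT values, but with 2 libraries a group an exact permutation test cannot go below 0.333, the value each gave, so these differences are a description.

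**Figure D2:**
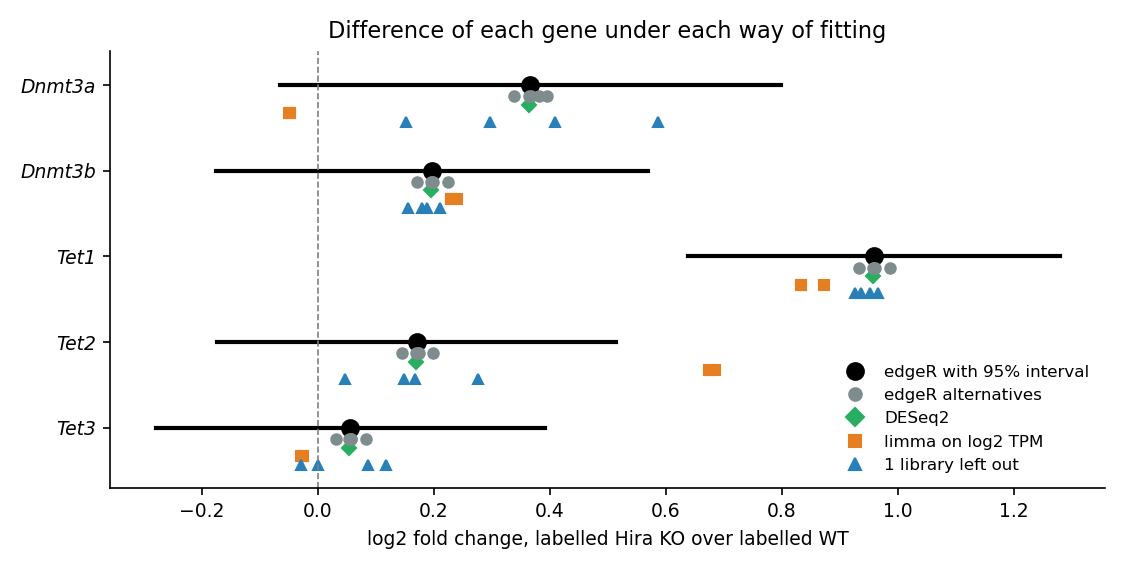
Log2 fold change of each gene, labelled Hira KO over labelled WT, in the edgeR fit (black, bar for the 95% interval) and under the alternatives (coloured symbols). Only the Tet1 interval, 0.64 to 1.28, lies clear of 0, and the limma values on log2 TPM stand apart for Dnmt3a and Tet2.

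Count and TPM parted for Tet2 and Dnmt3a. TPM divides by the transcript length that RSEM estimates, and this length did not overlap between the groups for either gene. RSEM weights a gene's length by the isoforms it assigns reads to, so the length moves when reads are assigned to other isoforms. Tet2, with 10 listed transcripts, had a weighted length of 3041 and 2186 bases in labelled Hira KO, against 4012 and 3482 bases in labelled WT. Both labelled Hira KO values lay below both labelled WT values, as did those of 17.7% of the 10504 tested genes with more than 1 transcript. The log2 ratio of the Tet2 mean lengths was -0.52, larger in size than that of 96.3% of those genes. Tet2 TPM was 1.60 times as high in labelled Hira KO as in labelled WT, while its CPM was 1.13 times as high. By limma on log2(TPM + 1) the Tet2 log2 fold change was 0.67 (adjusted p = 0.766).

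Dnmt3a moved the other way, with 18 listed transcripts and a weighted length of 4481 and 3992 bases in labelled Hira KO, against 3691 and 3010 bases in labelled WT. Both labelled Hira KO values lay above both labelled WT values, as for 15.5% of the same genes, and the log2 ratio of 0.34 was larger in size than that of 90.8% of them. The Dnmt3a log2 fold change turned to -0.05 by limma on log2(TPM + 1) (adjusted p = 0.981). Weighted lengths of Dnmt3b, Tet1 and Tet3 overlapped between the groups. Tet1 had 7729 and 6673 bases in labelled Hira KO and 7715 and 6514 bases in labelled WT. Read coverage along the transcripts is not in these tables, and its part in these lengths was not tested.

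**Figure D3:**
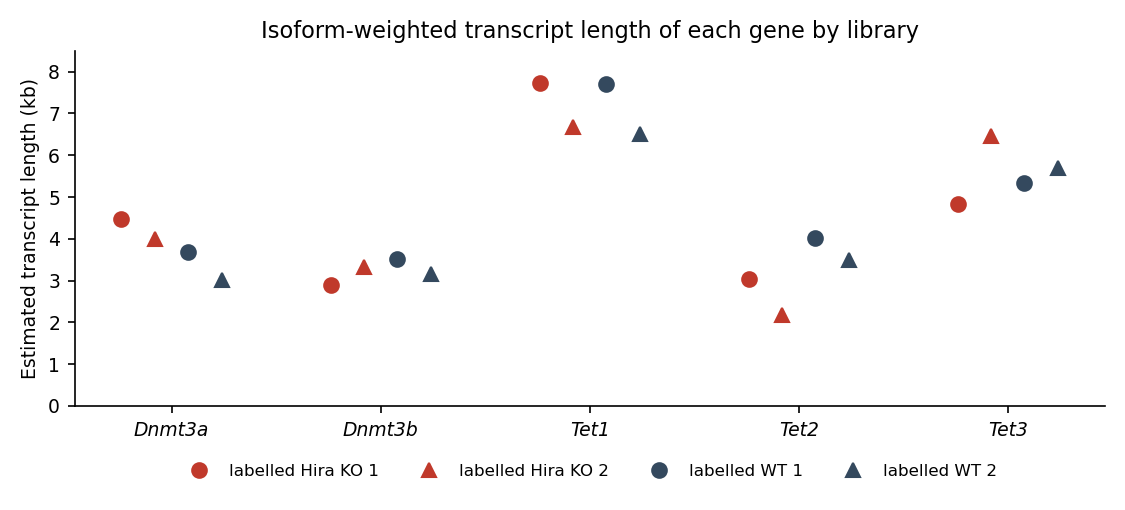
Isoform-weighted transcript length in kb of the 5 genes in each RNA library, with red for labelled Hira KO, blue for labelled WT, circles for replicate 1 and triangles for replicate 2. The Dnmt3a lengths lie higher in labelled Hira KO (4481 and 3992 bases, against 3691 and 3010 in labelled WT) and the Tet2 lengths lower (3041 and 2186 bases, against 4012 and 3482 in labelled WT).

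Within 10 kb of the 5 gene bodies, the 4 ATAC peak lists merged into 53 regions. Of these, 24 (45.3%) were called in all 4 libraries, beside 40.7% of all merged regions. The labelled Hira KO lists held 46 and 40 of the 53 and the labelled WT lists 36 and 26. The lists themselves differed in length, with 92839 and 73715 peaks in labelled Hira KO and 79565 and 63422 in labelled WT, and their read depth is unknown. Regions called in both labelled Hira KO lists and in neither labelled WT list numbered 5, and regions called the other way 0. Over all 112479 merged regions these kinds made up 5.64% and 2.77%. Of these 5, 2 lay in Dnmt3a, 1 in Tet3, 1 in Tet2 and 1 just past the 3′ end of Tet2. All 5 were weak, with fold enrichments (the authors' ratio to the caller's background) of 3.09 to 6.52. With a -log10 q of at least 5 required, the number was 2.

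By gene the regions numbered 13 at Dnmt3a, 5 at Dnmt3b, 7 at Tet1, 13 at Tet2 and 15 at Tet3, beside medians of 8, 5, 7, 7 and 7.5 at coding genes within 1.5 times their length.

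The start sites of 4 of the 5 genes lay in regions called in all 4 libraries. The same held for a start site of 96% of the 1316 coding genes at a mean log2 CPM of 6 or more. That level was chosen after the values were seen, and Dnmt3b, at 5.39, lay below it. Tet2 had the strongest start region, at chr3, 133542935 to 133545463, with fold enrichments of 101.2 and 78.6 in labelled Hira KO and 97.8 and 70.9 in labelled WT. It ranked above 96% of peaks in every list. The Tet3 start lay in a region at chr6, 83440954 to 83442261, with 53.1 and 52.2 in labelled Hira KO and 53.5 and 40.7 in labelled WT. The Dnmt3b start region at chr2, 153649139 to 153650486, had 18.6 and 12.4 in labelled Hira KO and 15.0 and 8.53 in labelled WT. As rank within a list, the Dnmt3b region stood at the 83.1 and 69.3 percentile in labelled Hira KO and at 75.7 and 56.8 in labelled WT, with overlap. The Tet3 start region stood at 94.3 and 93.9 in labelled Hira KO, against 92.0 and 90.4 in labelled WT, without overlap but close.

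Tet1 was the exception among the 5 genes, since its 1 start in the RefSeq promoter table lay in no called region of any library. RSEM lists 6 Tet1 transcripts, and starts outside that table were not looked at. Of 1316 coding genes at a mean log2 CPM of 6 or more, a level chosen after the values were seen, 2.36% had no start site inside a region. The nearest call ran from 62886661 to 62887084 on chr10, downstream of the start at 62887324. It had a fold enrichment of 3.26 in labelled Hira KO replicate 1 and of 3.46 in labelled WT replicate 1, and was not called in the other 2 libraries. The 2 regions at Tet1 that all 4 libraries shared were inside the gene. One at 62831446 to 62832136 had 11.0 and 14.4 in labelled Hira KO and 17.5 and 10.5 in labelled WT, and another at 62865154 to 62865702 had 7.93 and 14.8 in labelled Hira KO and 4.81 and 9.85 in labelled WT. In both the groups overlapped. No region at Tet1 was called in both libraries of 1 group and neither of the other. The labelled Hira KO lists held 7 and 2 of the 7 Tet1 regions and the labelled WT lists 3 and 2. A region at 62863579 to 62863960 had 11.2 in labelled Hira KO replicate 1 and was called in no other library.

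At Dnmt3a, several regions inside the gene ranked higher in labelled Hira KO. One at chr12, 3870794 to 3871473, stood at the 87.1 and 82.35 percentile of the labelled Hira KO lists, against 72.6 and 51.5 in the labelled WT lists. The region over both upstream starts (3806139 to 3808276) stood at 86.1 and 76.6 in labelled Hira KO, against 71.9 and 59.6 in labelled WT. A region at 3855657 to 3856492 stood at 83.9 and 61.8 in labelled Hira KO, against 56.8 and 49.5 in labelled WT. The region on the internal start (3890810 to 3891750) stood at 75.7 and 63.1 in labelled Hira KO and at 70.4 and 62.1 in labelled WT, with overlapping groups. The next region (3891819 to 3893101) leaned the other way, also with overlap. It stood at 35.9 and 19.4 in labelled Hira KO and at 47.0 and 35.0 in labelled WT. Of the 6 shared Dnmt3a regions, 4 ranked higher in both labelled Hira KO lists than in both labelled WT lists and 0 ranked lower, against 28.3% and 14.5% of the 45779 regions shared by all lists. The lists differ in length, and a list with more weak peaks lifts the percentile of a given region, so these ranks are a description with no test, and the part of list length in them was not tested. Of the 9 shared regions at Tet3, 2 ranked higher and 3 lower, and at Dnmt3b, Tet1 and Tet2 none was separated by group.

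**Figure D4:**
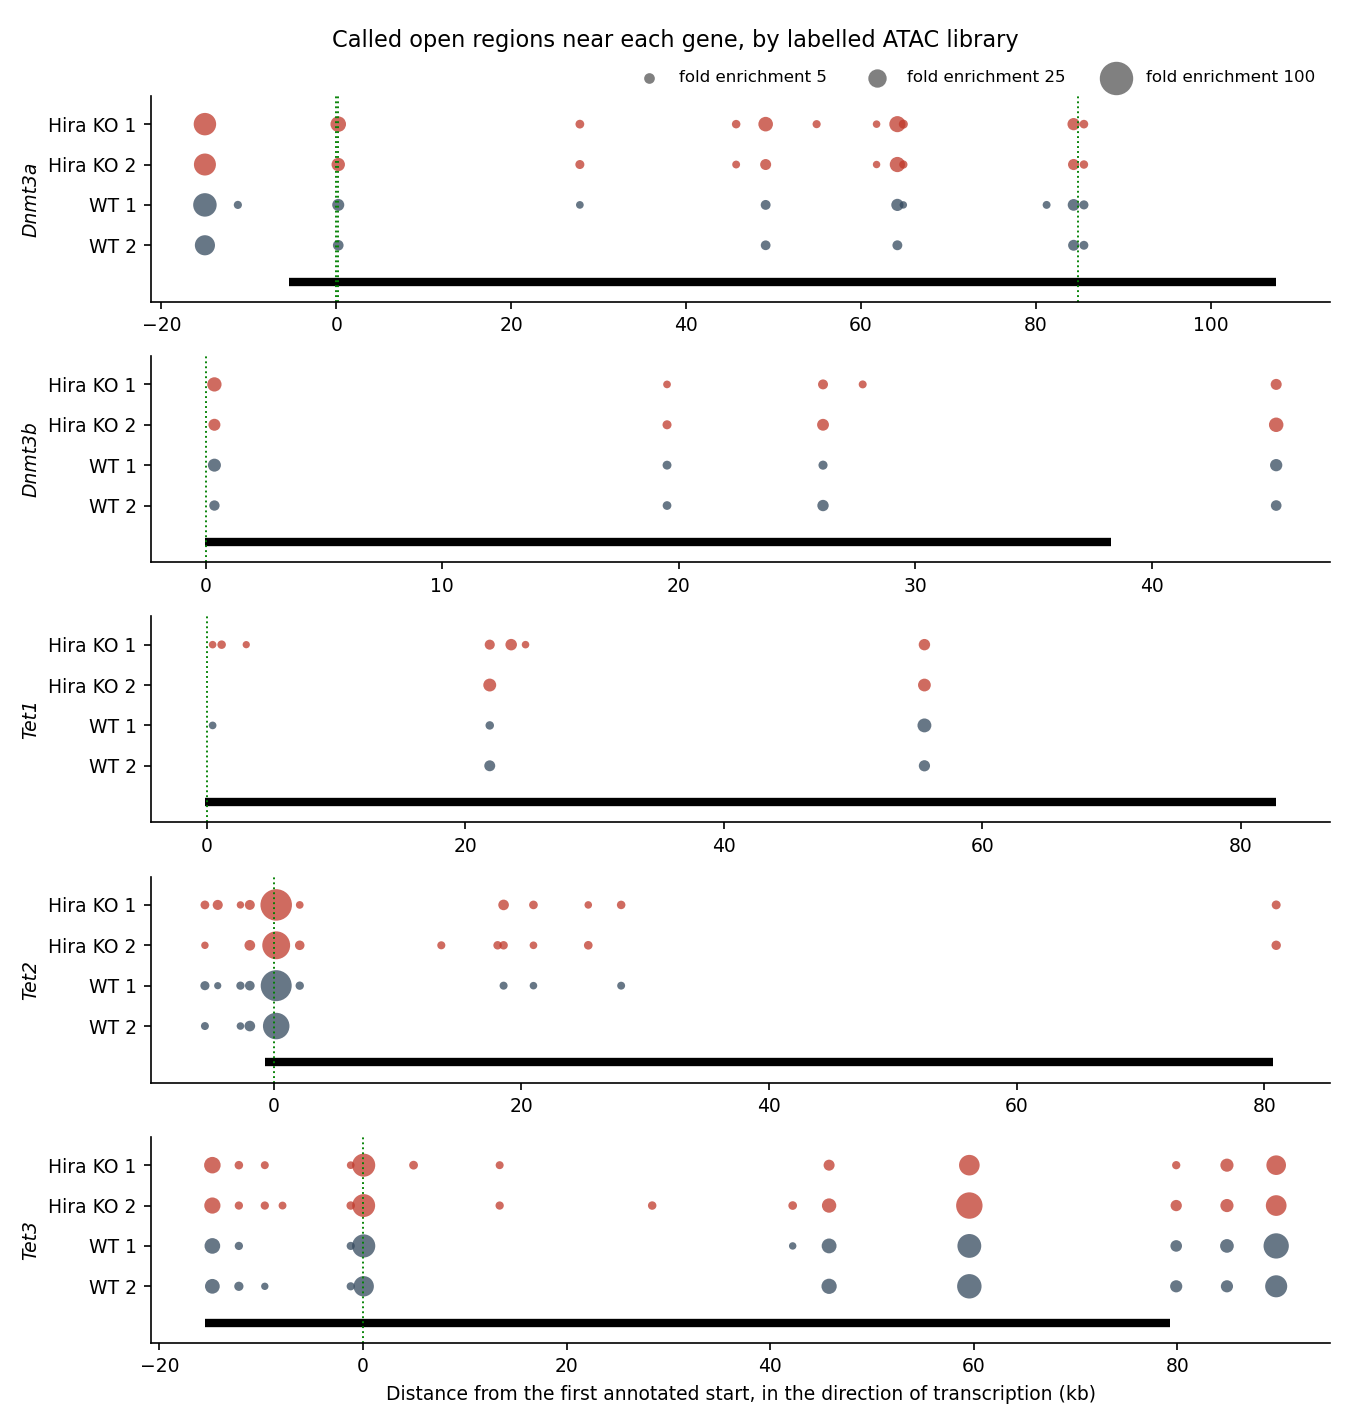
Called regions within 10 kb of each gene by distance in kb from its first start in the RefSeq promoter table, in the direction of transcription. Each row is an ATAC library labelled Hira KO (red) or WT (blue). Circle area grows with the authors' fold enrichment, the black bar is the gene body and dotted lines are annotated starts. The Tet2 and Tet3 starts carry large circles in all 4 rows, while no circle lies on the Tet1 start.

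The other genes of the pathway were taken from a list of 43, of which 38 had enough counts to test. None was called in either direction by edgeR, and 13 had an unadjusted p below 0.05 (5 higher and 8 lower in labelled Hira KO, beside 22.8% of all tested genes). DESeq2 called 3 higher and 3 lower, beside 5.68% and 3.54% of all genes it tested. On log2(TPM + 1) limma called 0 of 39, beside 0.351% of all genes called higher and 0.118% lower. The median log2 fold change of the 38 was -0.25, beside 0.01 over all tested genes. Of the 38, 29 lay below 0 and 9 above 0, while 50.9% of all tested genes lay above 0. Leaving out labelled Hira KO replicate 1 moved the list's median to -0.39, and leaving out replicate 2 of that group moved it to -0.11. The summed level of the 43 genes was 1313 and 755.4 TPM in labelled Hira KO and 1375 and 1089.8 TPM in labelled WT, lowest in labelled Hira KO replicate 2. The list leaves out Dnmt3l, Dppa3, Neil2, Cxxc4 and Wt1 from the tests for low counts.

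None of the 6 tested maintenance genes had a log2 fold change above 0 (50.9% of all tested genes did), and their median was -0.49. Uhrf1, which brings DNMT1 to hemimethylated DNA, had 115 and 86.7 CPM in labelled Hira KO, against 190.45 and 184.8 CPM in labelled WT (log2 fold change -0.89, edgeR adjusted p = 0.0528). Dnmt1 had 146 and 148 CPM in labelled Hira KO, against 207 and 218 CPM in labelled WT (-0.53, edgeR adjusted p = 0.0847). Neither passed. In both genes labelled Hira KO lay lower without overlap, as did 27.8% of all tested genes. In the repair list Apex1, an endonuclease that acts after TDG, had a log2 fold change of -0.69, and among the readers of methylated CpG Mbd2 had -0.56.

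Among the genes with positive values, again none was called. Slc23a2, a vitamin C transporter, had 21.9 and 32.0 CPM in labelled Hira KO, against 12.1 and 13.7 CPM in labelled WT (log2 fold change 1.06, edgeR adjusted p = 0.0707). Cxxc5, which has a zinc finger of the CXXC kind that TET1 and TET3 also carry, had 42.2 and 48.2 CPM in labelled Hira KO, against 29.2 and 26.6 CPM in labelled WT (0.70, edgeR adjusted p = 0.0816). The reader gene Zbtb4 had a log2 fold change of 0.76. Zfp57, which guards methylation at imprinted regions, had 1.88 but only 3.68 and 3.25 CPM in labelled Hira KO and 1.16 and 0.71 CPM in labelled WT.

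**Figure D5:**
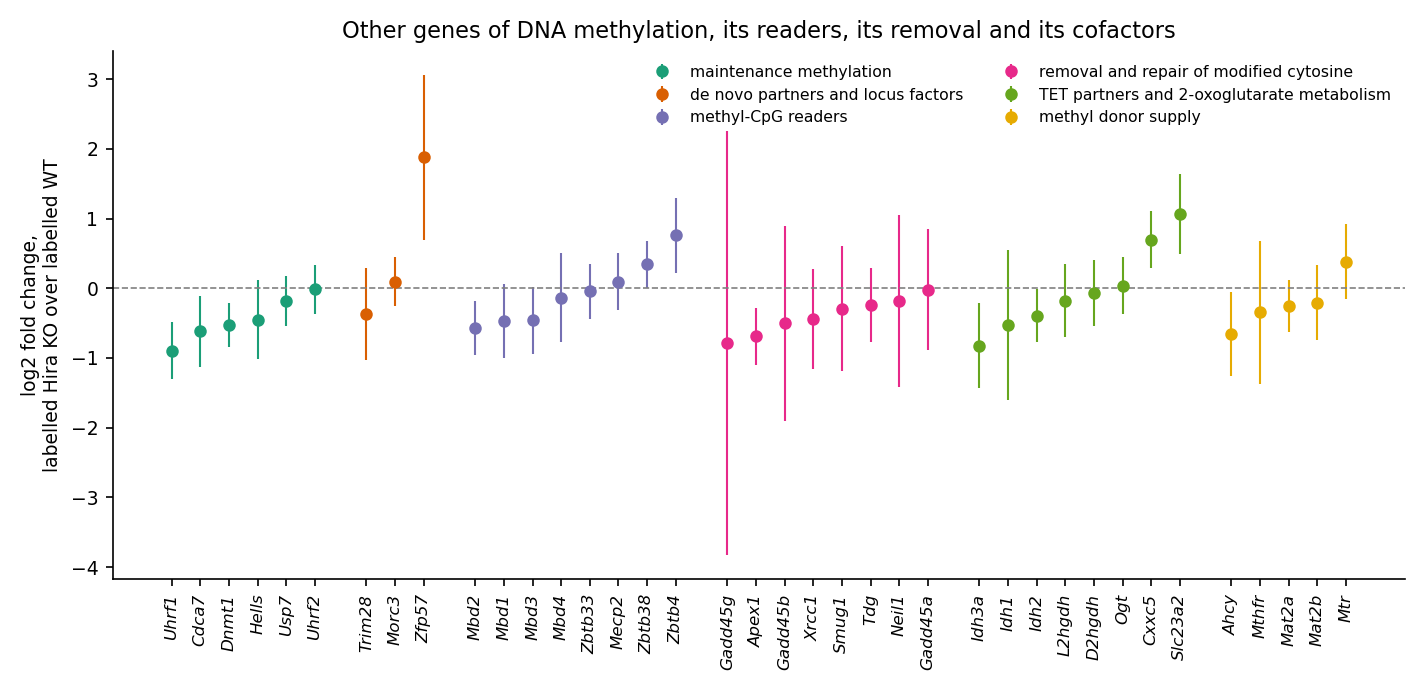
Log2 fold change, labelled Hira KO over labelled WT, of the 38 tested pathway genes with 95% intervals from edgeR, coloured by role. Uhrf1 (-0.89) and Dnmt1 (-0.53) lie low and Slc23a2 (1.06) and Cxxc5 (0.70) high, and none passed the threshold over all genes.

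Markers of cell state and of other cells are given beside these values. The counts called, here and for the further lineages below, stand beside 1.32% of all tested genes called higher and 0.48% called lower. Of 10 LSK and stem cell markers, 5 were called higher in labelled Hira KO and 0 lower, and their summed level was 617 and 619 TPM in labelled Hira KO, against 304 and 274 TPM in labelled WT. Kit itself had 330.4 and 327 CPM in labelled Hira KO and 274 and 351 CPM in labelled WT. Of 6 cycling markers none was called, all 6 lay lower without overlap (27.8% of all tested genes did), and they summed to 614 and 402 TPM in labelled Hira KO, against 790.4 and 645 TPM in labelled WT. Of 7 immediate-early genes 1 was called, higher, and all 7 lay higher without overlap (28.3% of all tested genes did). The 7 genes summed to 359.5 and 1227 TPM in labelled Hira KO, against 70.5 and 40.4 TPM in labelled WT. Of 9 granulocyte and monocyte genes 1 was called, lower, and they summed to 2532 and 1210 TPM in labelled Hira KO and to 5268 and 2688 TPM in labelled WT. The part of these shifts in the Tet1 difference was not tested.

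Markers of further lineages were also read. Erythroid genes summed to 55.5 to 81.7 TPM in labelled Hira KO and 141 to 172 TPM in labelled WT (0 of 8 called). Mast cell and basophil genes summed to 25.2 to 38.1 TPM in labelled Hira KO and 53.3 to 86.8 TPM in labelled WT (0 of 5). B cell and plasma cell genes summed to 145 to 281 TPM in labelled Hira KO and 95.5 to 156 TPM in labelled WT (1 of 8, higher). T cell genes summed to 12.5 to 15.2 TPM in labelled Hira KO and 8.18 to 11.9 TPM in labelled WT (1 of 5 called, Cd4, higher, with a log2 fold change of 1.77). The genes of the receptor's CD3 chains, Cd3d and Cd3e, had log2 fold changes of -0.17 and -0.53 with overlapping groups, and Cd3e was at 1.75 CPM or less in every library. Stromal and endothelial genes summed to 24.2 to 31.9 TPM in labelled Hira KO and 27.8 to 44.7 TPM in labelled WT (1 of 5 tested, lower), and megakaryocyte genes overlapped between the groups (0 of 4).

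Some genes followed the members closely across the 4 libraries. Likeness was measured as the root mean square difference of log2 CPM centred on each gene's mean, over 7750 coding genes. Nearest to Tet1 were Pink1 (0.0230) and Mdfic (0.0292), with log2 fold changes of 0.92 and 0.90, and 60 genes lay within 0.1. Nearest to Dnmt3a were Snrk and Gpx1, to Dnmt3b Sap18 and Etv5, to Tet2 Dhrs3 and Hnrnph2, and to Tet3 Akap10 and Tollip. Within 0.1 of these 4 members lay 92, 585, 446 and 709 genes in the same order, so a near pattern over 4 libraries is common.

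The kit is not stated to keep strand, so reads of an overlapping gene on the other strand could enter a member's count. The antisense gene Dnmt3aos had 6 and 1.81 expected counts in labelled Hira KO and 2 and 0 in labelled WT. Gm31623, on the minus strand over the internal start of Dnmt3a, had no row in the count tables. B230319C09Rik lies inside the annotated Tet3 body on the other strand, near the Tet3 start of the promoter table. It had 74 and 64 in labelled Hira KO and 62 and 63 in labelled WT. Against 1743 to 2126 expected counts of Tet3 in the same libraries, these are small. Gm51805, a noncoding gene that overlaps the start of Tet1, had no row in the count tables, so its reads cannot be told apart from those of Tet1.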

How the data were processed

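RNA-seq and ATAC-seq of sorted LSK cells were grouped by sample title, 2 libraries a group and assay. NuGEN Ovation amplification preceded Nextera XT library preparation, per the labels' protocols. Tools listed in the submitters' processing notes, without roles, include RSEM 1.3.0, STAR 2.5.3a, MACS2 2.1.1 and Bowtie2 2.2.9, with build GRCm38. The deposited expected counts are the authors' RSEM estimates per gene, with no normalization, per the file headers. The deposited TPM values sum to the same total in each library, and transcript lengths and credibility intervals come from the same files. The deposited peak lists are narrowPeak files made library by library, and hold the authors' ratio of enrichment, -log10 p-value, -log10 q-value and score. Treatment of the transposase offset was not given in the sources used here.

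Symbols were matched for 45143 of 45706 IDs. Expected counts were rounded and tested over all genes with edgeR 4.0.16 in R 4.3.3 (TMM, filterByExpr, robust quasi-likelihood F test, genotype as the only term, Benjamini-Hochberg adjustment, threshold 0.05). SEs and intervals derive from the F statistic. Alternatives used DESeq2 1.42.0 and limma 3.58.1. Same-group libraries differed by more than sampling noise (chi-square per gene 74.8 in labelled Hira KO and 54.6 in labelled WT). Depth limits genes of low count most, and peak lists carry none. Peaks sharing an interval counted as 1, the mitochondrial interval was left out, and peaks overlapping by 1 bp were merged. Distances are to RefSeq gene bodies of GRCm38.p6. Scripts were tested on simulated counts and made-up peaks. Protein sequences were not used here. Named besides the members are the 4 pathway genes of lowest p in each direction and the 2 nearest genes of each member at a mean log2 CPM of 3 or more. The members and lists were chosen with earlier results of these data known. Comparisons of weighted length, peak ranks, repeats and start sites in regions were added after the values were seen.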

Additional observations from a re-analysis of the deposited data

How the results depend on the processing

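Of 65 alternative values of the 5 genes' log2 fold changes, 53 kept direction and side of the threshold. On log2(TPM + 1), log2(TPM + 0.1) and log2(TPM + 1) without a filter, Dnmt3a was at -0.048, -0.049 and -0.048, Tet3 at -0.025, -0.028 and -0.025, and Tet1 at 0.83, 0.87 and 0.83 and no longer called (adjusted p 0.583 to 0.752). For Dnmt3a, labelled Hira KO over labelled WT was 0.95 by mean TPM, 1.29 by mean CPM and 1.26 by mean weighted length. The parts of length and of scaling in the gap between TPM and count were not tested. For Tet3 the cause was not tested. Leaving out 1 library at a time gave 0.93 to 0.97 for Tet1, -0.028 to 0.12 for Tet3, 0.15 to 0.59 for Dnmt3a, 0.16 to 0.21 for Dnmt3b and 0.05 to 0.28 for Tet2. Tet3 turned to -0.028 without labelled WT replicate 2.

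The 292 called genes became 1498 by DESeq2, 2223 with no low-count filter, 526 when the filter was stricter, and 107, 177 and 66 by limma on those TPM scales. Having no filter also moved the median log2 fold change of all genes to 0.13, against 0.01. With 1 library left out it was 3545 and 1190 without labelled Hira KO replicates 1 and 2, and 4 and 2 without labelled WT replicates 1 and 2. In these fits the lone library is assumed to vary like the other group. Deviations of same-numbered libraries had a correlation of 0.0247 over 8694 genes, and the labels name no pairing, so the numbers were not taken as pairs. Some values did go by number, such as the mitochondrial share (42.9% in labelled Hira KO and 40.8% in labelled WT for replicate 1, 53.1% and 51.7% for replicate 2). With the replicate block 537 genes were called, Tet1 among them (adjusted p 0.0246). The 0 called pathway genes became 6 by DESeq2, 9 with no filter, 1 with the stricter filter and 1 with the replicate block, and ran from 0 to 13 with 1 library left out.

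Within 50 kb the 53 regions became 100, with 2 called only in the labelled WT pair. With 1 ATAC library left out, regions ran from 48 to 54, those called only in labelled Hira KO from 6 to 13 and those only in labelled WT from 0 to 2, since fewer lists then decide. A stricter peak threshold left 2 regions of the kind seen only in labelled Hira KO. No depth comes with the peak lists.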
